A study of Mus musculus with 6 samples.

Results

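The second run of an aldosterone experiment on mIMCD3 cells was set against the first and the third run. The members are the 2 arrays, 1 with vehicle and 1 with aldosterone, whose titles carry the number 2, out of 6 arrays in all, and the comparison group is the 4 arrays of replications 1 and 3. The arrays were chosen by their labels and not by any measured value. The mIMCD3 line is an established mouse epithelial line of the inner medullary collecting duct. All cells received vehicle or aldosterone for 1 h, and the labels state no dose, no genetic change and no tissue of origin beyond the name of the line. Per the labels the experiment was carried out 3 times, each time giving 1 vehicle and 1 aldosterone sample of total RNA that was hybridised to its own single-colour array. The labels do not say how far the runs shared flasks, passage or reagents, so the p-values below measure only the spread between these arrays.

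The inner medullary collecting duct is the last stretch of the kidney tubule, where its epithelium sets the final sodium, water and urea content of urine in a strongly hypertonic environment. Aldosterone, the adrenal mineralocorticoid, enters such cells, binds the mineralocorticoid receptor and switches on early target genes such as the kinase Sgk1. A cultured line also carries variation that no treatment sets, among it how many cells are dividing, how much sterol and fatty acid the cells make, and how recently the medium stimulated the immediate early genes, which serum or handling induces within minutes. Such features can differ between repeats of one experiment.

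The deposited values were intensities, 1 for each of 12422 probe sets on each array. Each array was scaled to a common 2% trimmed mean of 2090, which multiplied 5 arrays by 0.838 to 0.840 and the aldosterone array of replication 3, deposited on another scale, by 24.2. Scaled medians lay between 747 and 843. Values were tested as log2(intensity + 53.0), so every fold change below is on that scale and understates changes at dim signals. Probe sets averaging 8.87 or more on that scale, 7453 in number, were tested, and 6742 of them carry exactly 1 gene symbol, for 5640 genes. The share of all probe sets below 53.0 was 4.55% on the vehicle array of replication 2, 11.2% on the aldosterone array of replication 2 and 9.6% to 12.5% on the other arrays. Whether this gap at the dim end plays a part in any difference was not tested.

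In replication 2 the transcript of Psmd1 rose and those of Xrn1, Hipk2, Gtf2f2 and Pcm1 fell, together with 1 probe set that has no gene name. These are the 6 of 7453 probe sets (0.0805%) that limma called at an adjusted p under 0.05 with treatment as a term, 1 higher (0.0134%) and 5 lower (0.0671%). For each of them the arrays of replication 2 and the other 4 arrays did not overlap. The difference had the same direction with vehicle and with aldosterone and differed in size between them by most for Gtf2f2, at -1.70 and -2.25.

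Xrn1 encodes the main cytoplasmic exoribonuclease, which degrades mRNA once its cap has been removed. With vehicle its intensity was 1236 in replication 1 and 1355 in replication 3, against 70.1 in replication 2. With aldosterone it was 1624 and 1342, against 79.4. Both arrays of replication 2 thus lay far below the other 4, close to the added 53.0. This came to a log2 difference of -3.49 (standard error 0.263), 11.2-fold lower, with an adjusted p of 0.00701 in limma. Because the signal in replication 2 was so dim, the size depends on the added constant, and the log2 difference was -2.70 with the constant at the 25th percentile of all values and -4.19 with a constant of 1.

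The probe set without a gene name, 95917_at, had a like pattern. Its intensity with vehicle was 1192 in replication 1, 860 in replication 3 and 70.3 in replication 2, and with aldosterone it was 1039, 713 and 53.2. The arrays of replication 2 were again near the dim end and the other 4 were not. The log2 difference was -3.11 (standard error 0.331, adjusted p = 0.0246 in limma).

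Pcm1 encodes the scaffold protein of centriolar satellites, the granules around the centrosome that serve the building of cilia. Its intensity was 3877, 3546, 4458 and 3401 on the vehicle arrays of replications 1 and 3 and the aldosterone arrays of replications 1 and 3, and 1014 and 1015 with vehicle and aldosterone in replication 2. Replication 2 was therefore well above the dim end and yet below every other array. The fitted log2 difference was -1.85 (standard error 0.169), 3.61-fold lower, with an adjusted p of 0.0154 in limma.

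Gtf2f2 encodes the small subunit of the general transcription factor TFIIF, which accompanies RNA polymerase II to promoters. In the same order of arrays its intensity was 2605, 2220, 2970 and 2674, against 702 and 550 in replication 2. No array of replication 2 came near the others, and the log2 difference came to -1.98 (standard error 0.199), 3.94-fold lower (adjusted p = 0.0211 in limma). Hipk2 encodes a nuclear kinase that acts on p53 and on other transcription factors. Its intensity was 1061, 1298, 849 and 916, against 217 and 145. The groups did not overlap, and the log2 difference was -2.21 (standard error 0.262), 4.63-fold lower (adjusted p = 0.0414 in limma).

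Psmd1 encodes the scaffold subunit of the 19S regulatory particle of the proteasome and was the 1 higher call. Its intensity was 6390 and 6348 with vehicle and 5991 and 5841 with aldosterone in replications 1 and 3, against 11891 and 11622 in replication 2. The 4 other arrays lay between 5841 and 6390, and both arrays of replication 2 stood far above them. Its log2 difference was 0.93 (standard error 0.113), 1.91-fold higher (adjusted p = 0.0414 in limma).

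All 6 probe sets were also called against replication 1 alone and against replication 3 alone, where 449 and 176 probe sets passed. These fits reuse the arrays of replication 2 and part of the others, with fewer residual degrees of freedom, and give no separate support. With the replication as a random block, 4 probe sets were called, and Hipk2 and Psmd1 each had an adjusted p of 0.0812. The calls rest on few arrays. Leaving out the vehicle array of replication 1, or either array of replication 2, left 0 calls (857, 314 and 684 probe sets at an unadjusted p under 0.05 in limma, for vehicle 1, vehicle 2 and aldosterone 2). Leaving out the aldosterone array of replication 1 or of replication 3 left 2 calls, Pcm1 and Xrn1, and leaving out the vehicle array of replication 3 left these and Gtf2f2. The 6 differences kept their direction each time, which was fixed beforehand because the arrays of replication 2 and the other 4 did not overlap. Setting 1 run against 2 by permuting the replications themselves could not give an exact p below 0.333.

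**Figure D1:**
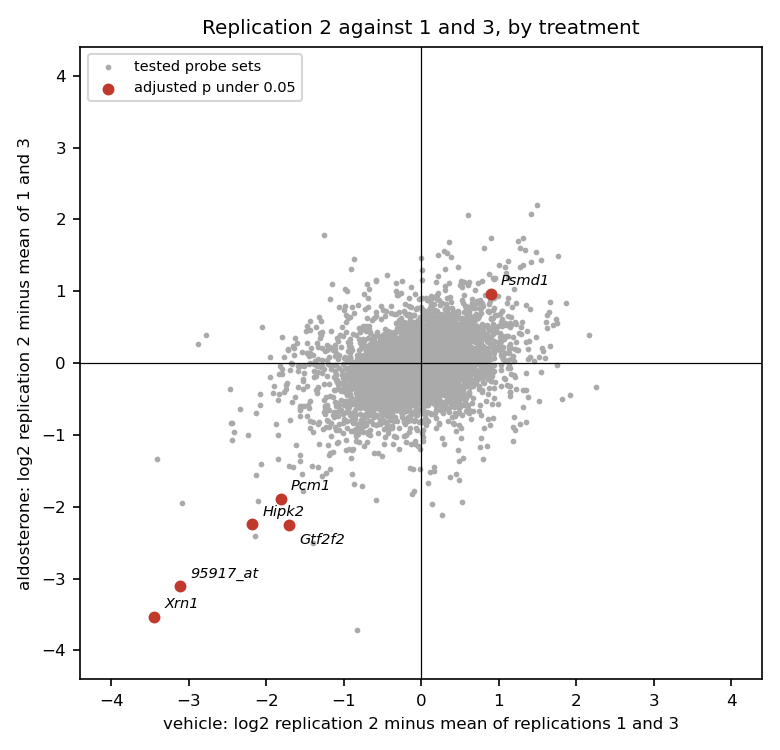
Each point is a tested probe set, with the log2 difference of replication 2 from the mean of replications 1 and 3 on the vehicle arrays (horizontal axis) and on the aldosterone arrays (vertical axis). The 6 probe sets with an adjusted p under 0.05 (red) lie near the diagonal, Xrn1 at -3.45 and -3.53 and Psmd1 at 0.90 and 0.97, while the cloud of all 7453 has a Pearson's r of 0.387.

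The whole table showed how far the second run stood apart in both treatments alike. Within a treatment, replication 2 can lie above both other arrays, below both, or between them. It lay above both with vehicle and also with aldosterone at 1183 of 7453 probe sets (15.9%), and below both in both treatments at 1405 (18.9%). The same count with replication 1 singled out was 1125 higher (15.1%) and 1059 lower (14.2%), and with replication 3 singled out 1510 higher (20.3%) and 1377 lower (18.5%). These comparisons share their arrays and are given side by side only. Without the aldosterone array of replication 1, the higher count was 1782. At an unadjusted p under 0.05, limma gave 395 higher (5.30%) and 601 lower (8.06%). Singling out replication 1 called 18 higher (0.242%) and 5 lower (0.0671%), and singling out replication 3 called 0 higher (561 at an unadjusted p under 0.05 in limma) and 6 lower (0.0805%).

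Large differences lay mostly on the lower side. At least 2-fold in the same direction in both treatments, 18 probe sets were higher in replication 2 and 35 were lower, and 3 went in opposite directions. At least 4-fold in both treatments, 0 were higher and 4 were lower. Over all 7453 probe sets the differences with vehicle and with aldosterone had a Pearson's r of 0.387 and the same sign at 65.0%, and points that share an array scale and a run are not independent.

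Beyond the calls, 13 more genes on the higher side and 10 on the lower side were named by the smallest p among genes apart in both treatments. None of these 23 passed the threshold, with limma's adjusted p between 0.0647 and 0.132. At all 28 genes, called or not, the arrays of replication 2 did not overlap with the other 4, as was so at 896 (12.0%) of all tested probe sets on the higher side and 1125 (15.1%) on the lower side. The genes were picked for standing apart, so this count carries no further weight.

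On the higher side, Anp32a, an acidic nuclear phosphoprotein that inhibits protein phosphatases, had the smallest adjusted p that missed the threshold, 0.0647. Its intensity was 708, 693, 622 and 706 in replications 1 and 3 (vehicle, then aldosterone), against 1959 and 2973 in replication 2, a log2 difference of 1.75. Yet the brightest of its probe sets had a log2 difference of -0.04, so the array gives no single answer for this gene. Kcnk1, a potassium channel of the kidney tubule and other epithelia, had 5277, 4423, 4777 and 4439 against 17766 and 8221, a log2 difference of 1.35, and the vehicle array of replication 2 stood higher than its aldosterone array. Tmed9, a cargo receptor of the early secretory pathway, had 1195, 1788, 1414 and 1750 against 3995 and 4239, a log2 difference of 1.41. Both were measured by 1 tested probe set.

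The other 10 higher genes had log2 differences between 0.58 and 1.46. Mark2, a kinase of epithelial polarity, had a log2 difference of 0.81 on its brightest probe set and 0.26 and 0.84 on the others. Limk1, the kinase that inactivates cofilin, had 1.07 on the brightest and 0.02 on the other. The tetraspanin Cd151, a partner of laminin-binding integrins, had 1.32 on 1 probe set, but 0.04 and -0.03 on its brighter ones. Cdkn2a, a locus of inhibitors of the cell cycle, had 0.98, Mxd4, an antagonist of Myc, 0.77, and Bag2, a cochaperone of Hsp70, 0.63, with 0.29 on the brightest of its probe sets. The ubiquitin ligase Wwp2 had 0.86 (0.41 on its other probe set), the RNA-binding protein Rbpms 0.58 (0.09 on the other), the splicing regulator Rbfox2 1.03, and Chrne, a subunit of the acetylcholine receptor of muscle, 1.46. None of these differences passed the threshold. Some of these genes had further probe sets too dim to test. Those of Rbfox2, Chrne and Cd151 were not apart in both treatments, while that of Bag2 was higher in both.

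On the lower side, Trpm7, a magnesium- and calcium-permeable channel fused to a kinase, had 1389, 929, 1401 and 641 in replications 1 and 3, against 216 and 137 in replication 2. The 4 other arrays themselves differed by over 2-fold, with replication 1 above replication 3, and the log2 difference was -2.28 (adjusted p = 0.0994 in limma). Pkhd1, the gene of recessive polycystic kidney disease, whose product fibrocystin sits on the primary cilium of collecting duct cells, had 3139, 3566, 3097 and 3660 against 1793 and 1438. Its other 4 arrays lay close together and both arrays of replication 2 below them, with a log2 difference of -1.04 (adjusted p = 0.0994 in limma). Suz12, a core subunit of the Polycomb repressive complex that methylates histones, had a log2 difference of -0.90 on the named probe set and -0.67 and -0.46 on the others, the lower direction on all of them.

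The remaining lower genes had log2 differences between -1.76 and -0.75. Med1, the Mediator subunit that binds nuclear receptors, had -1.11, and Rbm39, a splicing factor and coactivator, had -1.57, with -0.50 on its brightest probe set. Vamp3, a vesicle protein of recycling endosomes, had -1.02, Cpd, a carboxypeptidase of the secretory pathway, -1.60 (-0.43 on its brightest probe set), and Bpnt2, a phosphatase of the Golgi, -0.75 (0.08 on its other probe set). Ggnbp2 had -1.55 and the ubiquitin ligase Znrf1 -1.76 (0.06 on the other). At Znrf1 the vehicle array of replication 2, at 491, lay far below its aldosterone array, at 1728, while the other 4 arrays had 2658 to 3989.

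**Figure D2:**
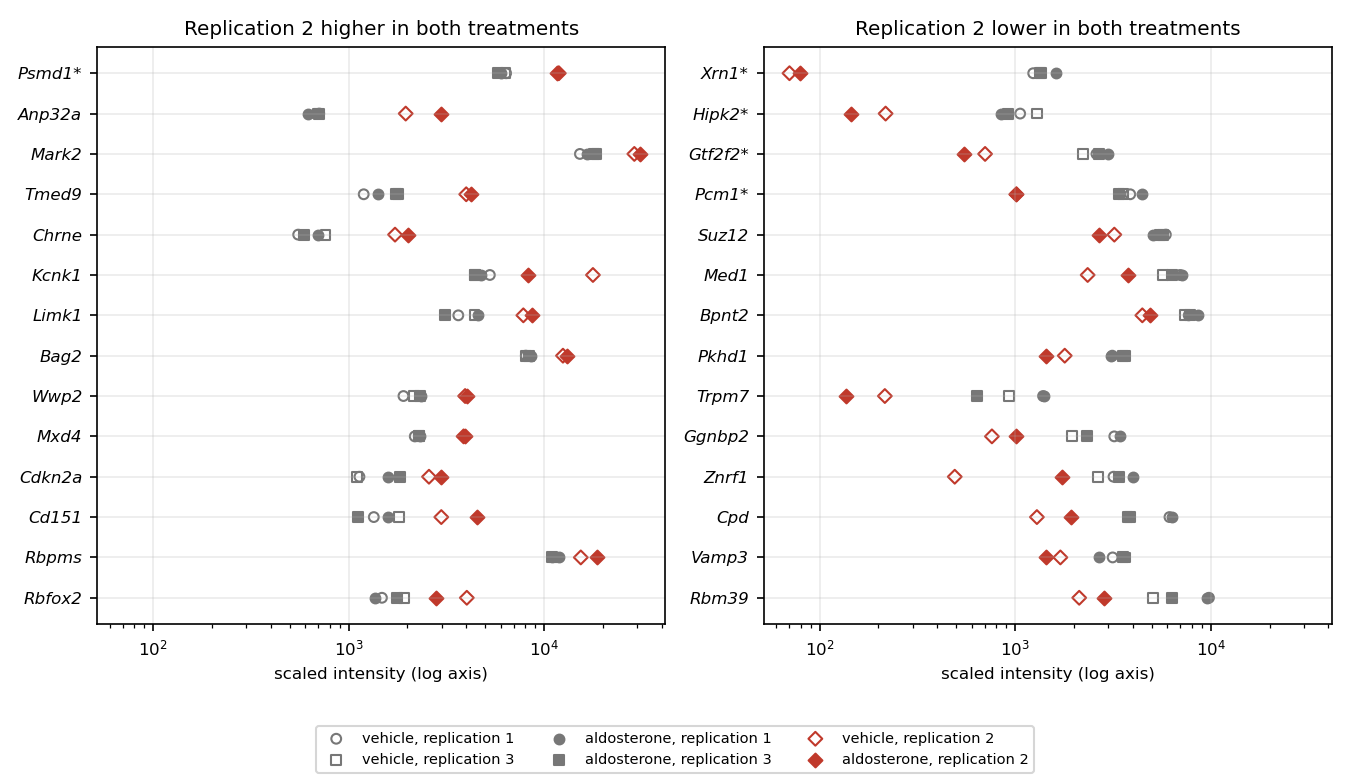
Scaled intensity on each array (horizontal log axis) of the 14 higher and 14 lower named genes, with replication 2 as red diamonds, replications 1 and 3 as grey circles and squares, open for vehicle and filled for aldosterone. An asterisk marks an adjusted p under 0.05, and for all 28 genes no grey point lies among or beyond the red ones, as for Psmd1 with 11622 and 11891 against 5841 to 6390.

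Where a gene had more than 1 tested probe set, the probe sets often disagreed about replication 2. Of the 14 higher genes 7 had another tested probe set, and for 5 of these every other probe set had the same sign, but only 1, Mark2, had another at 0.5 or more. Of the 14 lower genes 5 had another, 3 with the same sign throughout and 1, Suz12, with another at least as low as -0.5. Across all 941 genes with at least 2 tested probe sets, the difference of the brightest and that of the second had a Pearson's r of 0.217 and the same sign in 60.4%. Among 41 genes with a probe set at 1 or more in either direction, 5 had another at 0.5 or more the same way. None of the 5 called genes had a second tested probe set to compare with.

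The probe sets apart also differed by design class and by the length of the gene. Those whose identifier ends in _r_at, a class of designs with relaxed selection rules, had a median log2 difference of 0.20 over 365 tested, with 26.8% apart on the higher side and 14.2% on the lower. The 6035 ordinary _at probe sets had a median of -0.01, with 15.5% and 19.1%. Of the named genes, 5 of the 14 higher ones and 1 of the 14 lower ones, Gtf2f2, were measured by an _r_at probe set. The genomic span of genes apart on the lower side had a median of 27.6 kb, against 17.9 kb for those apart on the higher side and 19.1 kb for the other genes (Spearman's rho of difference and span -0.13 across 5631 genes, which are not independent replicates). The part of the probe design and of gene length in the differences was not tested.

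**Figure D3:**
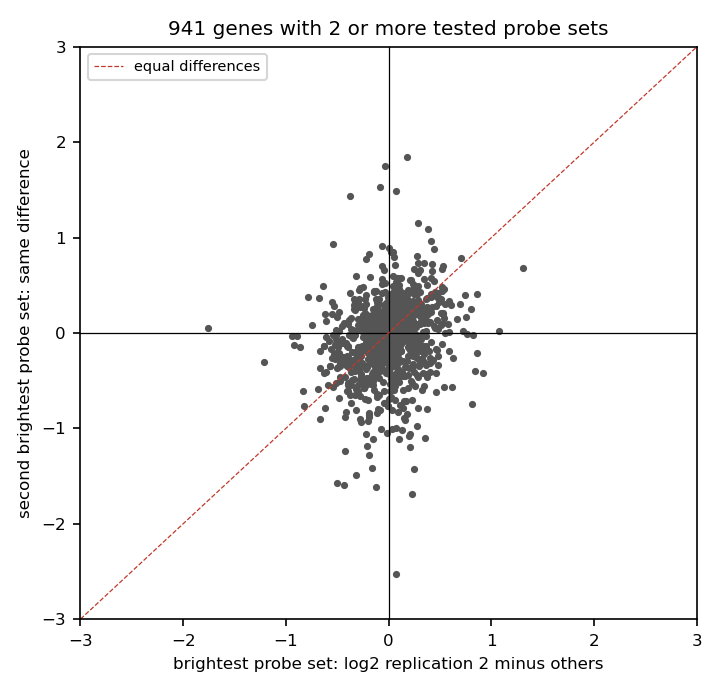
Each point is 1 of the 941 genes with at least 2 tested probe sets, with the log2 difference of replication 2 on its brightest probe set (horizontal axis) and on its second brightest (vertical axis), and the dashed line marks equal differences. The points spread widely around the line, with a Pearson's r of 0.217.

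Gene lists of pathways and cell types were described by counts and medians, each gene entering once through its brightest tested probe set. Over all 5640 tested genes the median log2 difference was -0.0008, with 49.9% above 0 and 50.1% below, and with 16.5% apart on the higher side and 18.3% on the lower in both treatments. Of 32 lists with at least 3 tested genes, 15 had a median above 0 and 17 below. Psmd1 was the 1 listed gene that limma called (0.0887% of all genes were called).

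Genes of mitosis leaned to the lower side in replication 2. Of 36 listed genes 29 were tested, 23 were below 0 and 6 above, the median log2 difference was -0.14, and 13 (44.8%) were apart on the lower side in both treatments against 2 on the higher. The median was -0.09 against replication 1, with 18 below and 11 above. Against replication 3 it was -0.16, with 23 below and 6 above, so the lean was weaker against replication 1. Smc4, a subunit of condensin, had 30940 and 28218 with vehicle and 28066 and 30473 with aldosterone in replications 1 and 3, against 20497 and 20228 in replication 2. Its arrays of replication 2 lay well below the narrow range of the other 4, with a log2 difference of -0.53 (adjusted p = 0.132 in limma). Mki67, the proliferation marker that coats mitotic chromosomes, had 13663, 13382, 11106 and 13178 against 7766 and 8618, a log2 difference of -0.64 (adjusted p = 0.154 in limma), although its dimmer probe set had 0.50. Ect2, which drives the cleavage furrow, had 13586, 15036, 11834 and 15013 against 10055 and 8646, a difference of -0.56. No mitosis gene passed the threshold.

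Other members shared that direction, and a few did not. Mad2l1 of the spindle checkpoint had -0.43, the mitotic kinase Cdk1 -0.31, and the kinesin Kif2c -0.40. The regulators Plk1, at 0.27, and Ccnf, at 0.39, were apart on the higher side. At Aurka, Ccnb2 and Cdc20 the difference was between -0.03 and -0.007. DNA replication genes, which serve the preceding phase of the cycle, were balanced, with 15 of 30 above 0 and 15 below, a median of 0.004, and Pcna at -0.28 and Mcm4 at 0.28. Of 5 tested histone genes 3 (60%) were below 0 and apart, H2az1 at -0.48, H1f2 at -0.88 and H2ax at -0.13, and 2 were above 0, Macroh2a1 at 0.29 and H3c14 at 0.66. Of all genes 18.3% were apart on the lower side, and 5 genes are few to set against that share.

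The sterol pathway leaned the other way. Of 25 listed genes 16 were tested, 13 were above 0 and 3 below, and the median log2 difference was 0.20. In both treatments 9 (56.2%) were apart on the higher side and 2 (12.5%) on the lower, against 16.5% and 18.3% of all genes. The median was 0.08 against replication 1 and 0.36 against replication 3. Lss, which closes the sterol ring as lanosterol synthase, had 1666, 1371, 1763 and 1163 in replications 1 and 3, against 2913 and 2416 in replication 2. Both arrays of replication 2 were the highest of their treatment by a clear step, with a log2 difference of 0.83 (adjusted p = 0.227 in limma). Fdps, the farnesyl diphosphate synthase, had 36761, 28816, 37163 and 30161 against 44225 and 47409, a difference of 0.47 and, on its second probe set, of 0.38, and Sqle, squalene epoxidase, had a difference of 0.40. Hmgcs1, the synthase at the head of the pathway, went against the list at -0.43, with 10168, 10109, 7551 and 10226 against 7547 and 6471, the aldosterone array of replication 1 being low among its 4. The other lower members were Sc5d at -0.47 and Hsd17b7 at -0.29.

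Fatty acid synthesis also had a median above 0, but a larger share apart on the lower side than the sterol list. Of 16 listed genes 12 were tested, 8 above 0 and 4 below. The median was 0.26 (0.27 against replication 1 and 0.13 against replication 3). In both treatments 6 (50%) were apart on the higher side, against 16.5% of all genes. On the lower side 3 (25%) were apart, against 18.3% of all genes and 12.5% of the sterol list. Acly, the citrate lyase that supplies acetyl-CoA to both pathways, had 9149, 8182, 9406 and 8338 against 11791 and 12722, a log2 difference of 0.48 (adjusted p = 0.210 in limma). Srebf1, which encodes the transcription factor that drives lipogenic genes, had 9564, 7729, 10177 and 7482 against 12795 and 12354, a difference of 0.53. In both genes replication 1 lay above replication 3 and replication 2 above both. Malic enzyme, Me1, had 0.45 and fatty acid synthase, Fasn, 0.34. The elongase Elovl1 had -1.15, with 1888, 963, 2717 and 1056 against 421 and 1003, where the aldosterone array of replication 2 overlapped the vehicle array of replication 3. No gene of either lipid list passed the threshold.

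Promoters of 5 genes apart in both treatments are shown, 4 that hold motifs known from their pathways and 1, Mad2l1, that holds none, chosen after the motifs were counted. The windows are the 250 bases before the start of transcription in RefSeq (GRCm38.p6), 5′ to 3′ on the gene's own strand, and matches on both strands are in capitals. CCAAT, or ATTGG on the other strand, is the box bound by NF-Y, and TTTGAA, or TTCAAA, is the core of the element called CHR in cell cycle promoters. The motifs do not overlap here. The window of Mki67 is chr7:135716380-135716629 on the minus strand, that of Ect2 chr3:27153879-27154128 on the minus strand, that of Mad2l1 chr6:66534971-66535220 on the plus strand, that of Lss chr10:76531355-76531604 on the plus strand, and that of Idi1, the isopentenyl diphosphate isomerase, chr13:8885356-8885605 on the plus strand.
Mki67: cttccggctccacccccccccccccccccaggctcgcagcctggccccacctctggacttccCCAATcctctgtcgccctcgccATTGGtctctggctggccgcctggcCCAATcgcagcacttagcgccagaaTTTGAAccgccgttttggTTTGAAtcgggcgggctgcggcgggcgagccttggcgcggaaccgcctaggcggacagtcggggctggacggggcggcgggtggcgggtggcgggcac
Ect2: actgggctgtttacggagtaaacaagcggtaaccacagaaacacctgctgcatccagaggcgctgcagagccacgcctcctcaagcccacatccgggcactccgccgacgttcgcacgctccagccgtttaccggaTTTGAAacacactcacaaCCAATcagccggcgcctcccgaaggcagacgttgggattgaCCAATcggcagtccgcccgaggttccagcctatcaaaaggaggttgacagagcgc
Mad2l1: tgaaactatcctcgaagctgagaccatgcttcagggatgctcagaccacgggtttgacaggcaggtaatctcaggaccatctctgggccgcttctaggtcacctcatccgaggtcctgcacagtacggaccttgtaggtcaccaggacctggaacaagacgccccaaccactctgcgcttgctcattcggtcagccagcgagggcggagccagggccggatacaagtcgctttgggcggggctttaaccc
Lss: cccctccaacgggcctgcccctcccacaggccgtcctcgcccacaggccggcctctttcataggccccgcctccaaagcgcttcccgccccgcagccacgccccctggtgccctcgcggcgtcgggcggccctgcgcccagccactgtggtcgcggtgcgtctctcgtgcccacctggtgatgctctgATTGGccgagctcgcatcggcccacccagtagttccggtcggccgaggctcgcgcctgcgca
Idi1: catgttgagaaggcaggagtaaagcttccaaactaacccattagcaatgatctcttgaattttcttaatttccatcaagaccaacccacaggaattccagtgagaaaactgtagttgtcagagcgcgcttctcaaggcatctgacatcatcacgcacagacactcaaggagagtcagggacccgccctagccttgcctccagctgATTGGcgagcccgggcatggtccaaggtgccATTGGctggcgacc

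In these letters Mki67 held 3 CCAAT boxes and 2 CHR cores, Ect2 held 2 and 1, and Mad2l1 held 0 of either. Lss held 1 CCAAT box and Idi1 held 2, while Acly and Me1, also on the higher side, held 0. Idi1 was apart on the higher side, with 8693, 7208, 8270 and 7033 in replications 1 and 3 against 8776 and 9549 in replication 2, a log2 difference of 0.24. Over the lists, CCAAT occurred in 20 of 23 mitosis genes with a window (87%), 12 of 13 sterol genes (92.3%) and 5 of 9 fatty acid genes (55.6%), against 34.5% of all 27025 RefSeq genes with a window and 36.5% of 4591 tested genes. TTTGAA occurred in 12 of 23 mitosis genes (52.2%) against 16.3% of all genes and 10.7% of tested ones. Among the mitosis genes apart on the lower side, 9 of 12 held CCAAT (75%) and 5 of 12 held TTTGAA (41.7%). Both shares were below those of the whole mitosis list, so the motifs did not mark the genes apart within it. The sterol response letters TCACNCCAC were in 1 of 13 sterol genes and 0 of 9 fatty acid genes, against 1.04% of all genes. Among the genes of both lipid lists apart on the higher side, 7 of 11 held CCAAT (63.6%) and 0 of 11 the sterol response letters. That CCAAT share lay between those of the 2 whole lists. Such matches are letters in a window, and no binding was measured.

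Cytosolic ribosomal protein genes also leaned lower. Of 23 tested genes 15 were below 0 and 8 above, and the median log2 difference was -0.08 (-0.10 against replication 1 and -0.034 against replication 3). On the lower side 10 (43.5%) were apart and on the higher side 1 (4.35%), against 18.3% and 16.5% of all genes. Rpl7 had 94227, 93170, 90160 and 91147 in replications 1 and 3, against 70945 and 65421 in replication 2, a difference of -0.44 (adjusted p = 0.132 in limma). The other 4 arrays had a narrow range there, and replication 2 was below them all. Rps24 had -0.32 and Rps7 -0.24, and Rpsa, at 0.17, was the 1 gene apart on the higher side. With quantile normalization in place of the common trimmed mean, the list's median was 0.0008.

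**Figure D4:**
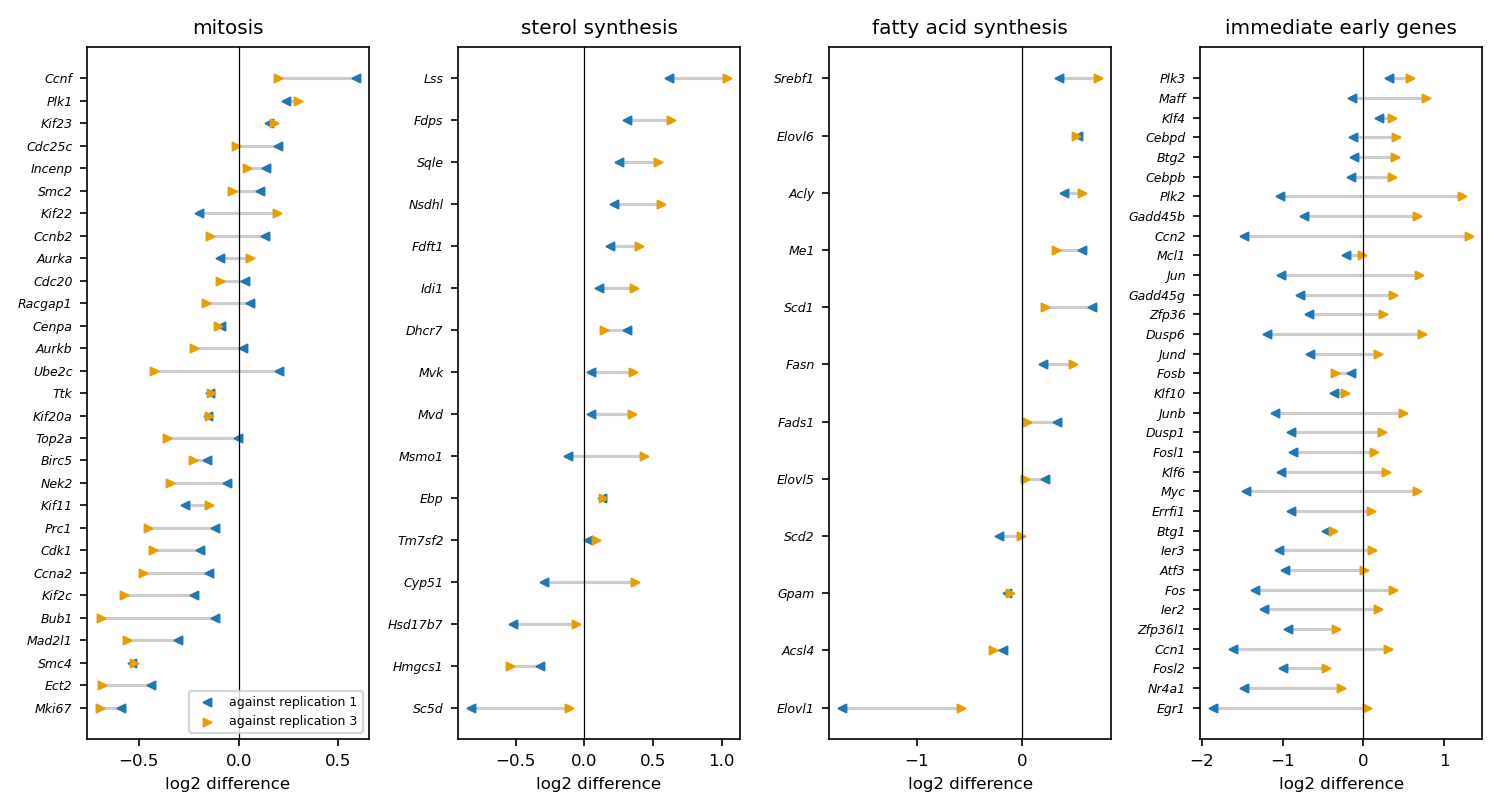
Log2 difference of replication 2 from replication 1 (blue) and from replication 3 (orange), each averaged over both treatments, for every tested gene of 4 lists in order of the difference from both. Markers on one side of 0 stand for genes whose average lay above, or below, that of both other runs, as for Lss and Mki67. Such genes need not be apart within each treatment. Most immediate early genes have replication 1 and replication 3 on opposite sides.

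Immediate early genes, which serum, growth factors and handling induce within minutes, placed replication 2 between the other runs. Of 40 listed genes 33 were tested, and 31 were below replication 1 while 26 were above replication 3. The median log2 difference was -0.90 against replication 1, 0.28 against replication 3 and -0.30 against both. In both treatments 1 gene (3.03%) was apart on the higher side, against 16.5% of all genes, and 5 (15.2%) on the lower, against 18.3%. Btg1, an antiproliferative gene, had 9348, 8997, 9352 and 8696 against 6200 and 7399, a log2 difference of -0.42. Zfp36l1, which promotes decay of AU-rich mRNAs, had -0.63 and Klf10 -0.30. Egr1, an immediate early transcription factor named after its value was seen, had -0.91 with a standard error of 0.611, replications 1 and 3 lying far apart.

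Markers of simple epithelium in replication 2 were near replication 1 in their median and above replication 3. Of 10 markers 9 were tested, 8 above 0, with a median log2 difference of -0.0054 against replication 1 (5 below and 4 above) and 0.53 against replication 3 (1 below and 8 above). In both treatments 3 of the 9 (33.3%) were apart on the higher side and 0 on the lower. The keratin Krt8 had 18754, 15918, 17844 and 15680 against 23502 and 18858, above both other runs, with a difference of 0.31. Cldn7, a claudin of tight junctions, had 4435 and 4303 in replication 1, 1574 and 1857 in replication 3, and 5337 and 5443 in replication 2. Replication 2 was thus somewhat above replication 1 and far above replication 3. Krt7 had 5337 and 4067, 1741 and 2123, and 4751 and 4535 in that order of runs, with replications 1 and 2 overlapping and replication 3 low. Genes of NF-kB and epithelial inflammation had a median of -0.19 against replication 1 and 0.32 against replication 3. Of 18 tested, 3 (16.7%) were apart on the higher side, near the 16.5% of all genes. On the lower side 0 were apart, against 18.3% of all genes. The aldosterone array of replication 3 was deposited on another scale. Without it, 3 of the 9 epithelial markers (33.3%) were apart on the higher side and 1 (11.1%) on the lower. Over all tested genes these shares were 20.5% and 23% without that array, against 16.5% and 18.3% with all arrays.

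**Figure D5:**
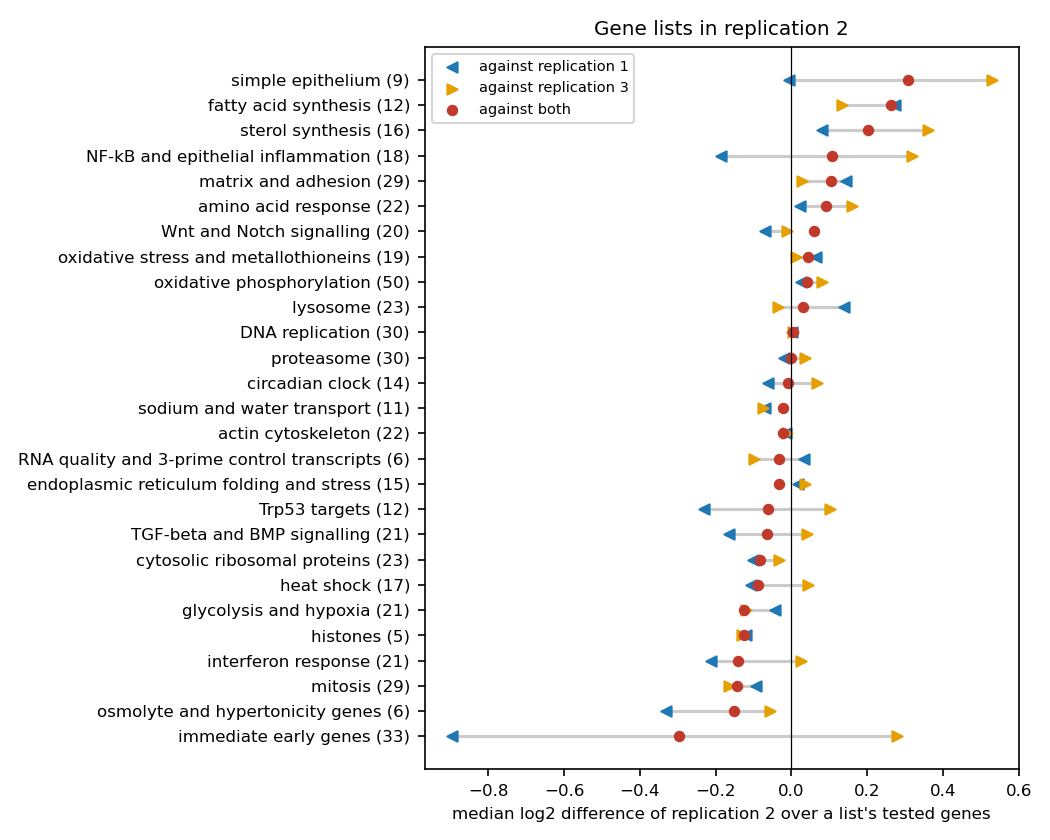
Median log2 difference of replication 2 over the tested genes of each list with at least 5 (number in parentheses), against both other replications (red) and against each alone (blue and orange triangles). Mitosis, sterol synthesis and fatty acid synthesis have their medians on one side of 0 in all 3 comparisons. So do several other lists, such as glycolysis and hypoxia, cytosolic ribosomal proteins, and matrix and adhesion. Immediate early genes run from -0.90 to 0.28.

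Genes of antigen presentation and the stress responses gave mixed values. Of 21 tested interferon response genes 17 were below 0, with a median of -0.14 against both runs, -0.21 against replication 1 and 0.024 against replication 3, where 10 were below and 11 above. Those apart numbered 6 (28.6%) on the lower side and 2 (9.52%) on the higher, against 18.3% and 16.5% of all genes. The lower ones included the class I genes B2m and H2-D1, both at -0.36, and the immunoproteasome subunit Psmb9 at -0.54. The amino acid response had 14 of 22 above 0 and a median of 0.09, yet its smallest p values belonged to lower genes, Vldlr at -1.22, Ddit3, the stress transcription factor CHOP, at -0.96 and Cebpg at -0.68. Vldlr, a lipoprotein receptor, had 1000, 1285, 1197 and 1617 against 472 and 552 (adjusted p = 0.132 in limma), with -0.30 on its dimmer probe set. Among heat shock genes, the constitutive chaperone Hspa8 had 25422, 23860, 23053 and 21264 against 17353 and 13683, a log2 difference of -0.60 with an adjusted p of 0.110 in limma. The endoplasmic reticulum cochaperone Dnajb9 had -0.84, and -0.61 on its dimmer probe set. On the higher side stood Sod1, the cytosolic superoxide dismutase, with 9678, 7652, 8827 and 9121 against 12325 and 12212, a difference of 0.48, and Hmox1, heme oxygenase, at 0.30. None of these passed the threshold.

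The genes that respond to hypertonicity, the hallmark of the inner medulla, were below 0 in 6 of 6 tested, with a median of -0.15. Only 1 of the 6 (16.7%) was apart on the lower side, near the 18.3% of all genes, and against replication 3 alone 3 were below and 3 above, with a median of -0.057. The amino acid transporter Slc38a2 had 9657, 12802, 9632 and 11570 against 7261 and 7387, a difference of -0.56, and the other 5 lay between 0 and that value. Of the clock genes, the nuclear receptors Nr1d2, at -0.63, and Nr1d1, at 0.59, were apart in opposite directions, and the list's median was -0.01. The proteasome list that holds Psmd1 was balanced, with 15 of 30 above 0 and a median of -0.002. Its next members by p were Psmb2 at 0.61 and Psmd3 at 0.22, neither past the threshold. Oxidative phosphorylation had 29 of 50 above 0 and a median of 0.04, with Cox6c at -0.35 and Atp5d at 0.82 on its brightest probe set but from -0.02 to 0.35 on its other ones.

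The next lists had medians between -0.12 and 0.10, with individual members farther out. In matrix and adhesion (median 0.10), the laminin chain Lamb3 had 0.55 and its receptor subunit Itga3 had 0.51, while Itgb1 had -0.30. The lysosomal membrane proteins Lamp1 and Lamp2 went apart, at 0.24 and -0.48. In the actin list (median -0.02) Actg1, cytoplasmic actin, had -0.38. Against single runs some of these medians turned: those of the Trp53 and TGF-beta lists were below 0 against replication 1 and above it against replication 3. Glycolysis and hypoxia genes had a median of -0.12, with Hk1 at -0.44, Pgk1 at -0.23 and Vegfa at -0.94, though 0.083 on the aldosterone arrays alone. The Trp53 targets had Perp at 0.51, Mdm2 at -0.34 and Cdkn1a at 0.42 (0.72 on its other probe set), around a median of -0.06. For TGF-beta and BMP signalling the median was -0.07, with Smad1 at -0.26, Bmpr1a at -0.59 and Id2 at -0.23. For Wnt and Notch it was 0.06, with Dkk3 at 0.56, Lrp5 at 0.39 and Notch2 at -0.55. Genes of sodium and water transport had a median of -0.02, with Clcn3 at -0.18, Wnk1 at -0.19 (-1.28 and -1.09 on its dimmer probe sets) and Slc4a4 at -0.47, though 0.064 on the aldosterone arrays alone. Control transcripts had a median of -0.03, with Ywhaz at 0.55, Tfrc at 0.35 (-0.30 on its dimmer probe set) and Hprt at -0.22.

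The markers of the collecting duct principal cell were too dim to test, with 5 of 11 on the array, 0 tested, and summed intensities of 506 to 796 in replication 2 and 850 to 1436 on the other arrays; the labelled cells thus showed the epithelial keratins and claudins above, but not these defining genes at a testable level. Fibroblast markers summed to 8544 to 10930 in replication 2 and 6437 to 8824 elsewhere (4 of 11 tested, from -0.20 for Col1a1 to 0.66 for Pdgfra, 1 of them apart on the higher side). Leukocyte markers summed to 9523 to 11724 and 7625 to 9492 (4 of 10 tested, from -0.40 for Cd68 to 0.54 for Cd74, 3 of them apart on the higher side), the range of replication 2 lying just above that of the other arrays. Over all tested genes 16.5% were apart on the higher side, and lists of 4 tested genes are too short to set against that share. Proximal tubule markers gave 3037 to 3878 and 2314 to 3545, intercalated cell markers 6683 to 7415 and 6107 to 8557, and endothelial markers 1661 to 2519 and 1782 to 2927, ranges that overlap. No marker passed the threshold. In bulk RNA, fewer cells of a type and less RNA per cell cannot be told apart, and the part of other cells in the differences was not tested.

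The response to aldosterone was set side by side at the 4 genes taken to be those this series is known for. Sgk1 was higher with aldosterone by 1.48, 1.46 and 1.96 on the log2 scale in replications 1, 2 and 3. Per1, of the circadian clock, was higher by 1.27, 1.58 and 0.92, and the endothelin gene Edn1 by 1.11, 1.06 and 0.89 on its brightest probe set and 1.29, 1.16 and 1.29 on the other. Ccn2, connective tissue growth factor, was higher by 0.44, 1.27 and 1.01. Levels over both treatments in replication 2 differed from the other runs by -0.16 for Sgk1, 0.03 for Per1, -0.23 for Edn1 (0.36 on the other probe set) and -0.08 for Ccn2 (adjusted p from 0.577 to 0.978 in limma).

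Whether the response differed in replication 2 was tested as an interaction. Without a block, limma called 0 of 7453 probe sets, with 196 (2.63%) at an unadjusted p under 0.05, 118 with a larger and 78 with a smaller response, and a smallest adjusted p of 0.850. With the replication as a block, which leaves a single residual degree of freedom, 4 probe sets were called and 658 had an unadjusted p under 0.05. Thrap3, a factor of splicing and transcription, had an aldosterone effect of -0.09, 2.94 and -0.37 in replications 1, 2 and 3 on the called probe set (adjusted p = 1.09e-04 in limma). Its other probe set was not called. Glipr2, a Golgi-associated protein, had 0.17, 2.12 and 0.29. The remaining calls were 92516_at, with 0.30, 3.27 and -0.05, and 101678_r_at, with 2.00, -0.52 and 2.12, both without a gene name. For the aldosterone genes above, the response in replication 2 minus that in the other runs was -0.25 for Sgk1, 0.49 for Per1, 0.06 for Edn1 (-0.13 on the other probe set) and 0.54 for Ccn2, each with an adjusted p of 0.99994 in limma without a block.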

How the data were processed

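Intensities of 12422 probe sets on 6 single-colour arrays were deposited by the authors on a linear scale. How the arrays were scanned, summarised and scaled is not given in the sources used here, and the files hold no detection call. Every array was scaled to the mean 2% trimmed mean (2090), and log2(value + 53.0) was computed, with the 10th percentile of the scaled table as constant. Probe sets at or above the 40th percentile of the mean were tested. Groups came from the array titles.

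Limma 3.58.1 in R 4.3.3 (lmFit, eBayes with an intensity trend, two-sided) was fitted to all 6 arrays on treatment and replication 2, with 3 residual degrees of freedom. P-values were adjusted by Benjamini-Hochberg across all 7453 probe sets (threshold 0.05). The fit was also run on simulated data, with noise drawn independently for each array. That simulation held no deviation shared by the 2 arrays of a run, so it cannot show how such sharing affects the p-values. The response to aldosterone was compared by an interaction term. The replication numbers pair the arrays, since per the labels a replication is 1 run of the experiment, and its 2 arrays deviated together from their group means (r of 0.377, 0.387 and 0.471). The alternative fit therefore used the replication as a block.

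Symbols came from the platform annotation, updated through Entrez identifiers to RefSeq (GRCm38.p6), which changed 0. Exactly 1 symbol was paired with 10833 probe sets, several with 396 and none with 1193. Genes named are the 14 higher and 14 lower called genes with the largest difference that were apart in both treatments, filled up by smallest p, up to 3 members of each list of at least 5 tested genes by smallest p, and members named to show a list's range or opposite direction after their values were seen. The arrays, the 34 gene lists and the tests were chosen with earlier results of these data known. Precision is limited by the number of arrays.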

Additional observations from a re-analysis of the deposited data

Results flagged for a closer look

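Among the 4 arrays of replications 1 and 3, a single array stood away from the other 3 at 5 of 110 genes examined, by a gap, relative to the whole range, above Dixon's 95% critical value for 4 samples. Chance gives such a gap in about 1 of 20 groups, and 5 of 110 is near that rate. The 4 arrays also mix both treatments and both runs, which the critical value does not allow for. At Hmgcs1 the ratio was 0.962, with 7551 on the aldosterone array of replication 1 and 10109 to 10226 on the others. At Cebpg it was 0.880, the same array having 1301 against 733 to 785. At Hk1 it was 0.850, with 27719 on the vehicle array of replication 3 against 39839 to 42473. At Mxd4 it was 0.845, with 2180 on the vehicle array of replication 1 against 2289 to 2310. At Anp32a it was 0.836, with 622 on the aldosterone array of replication 1 against 693 to 708. Mxd4 and Anp32a still had both arrays of replication 2 above all 4, and Hmgcs1 and Cebpg both below.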

How the results depend on the processing

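The 6 called probe sets kept their direction under every alternative in which they were tested. The 28 named genes kept theirs in all (23 remained to be tested with the filter at the 60th percentile). At each of these the arrays of replication 2 did not overlap with the other 4. Leaving out arrays, taking a single treatment or run, or changing the constant or the fit could therefore not turn the direction. The kept directions carry no further weight. The number called was 3 with quantile normalization, 2 with that filter, 20 without the treatment term, 19 on the vehicle arrays, 0 on the aldosterone arrays (276 at an unadjusted p under 0.05 in limma), 449 against replication 1 alone and 176 against replication 3 alone. It ran from 0 to 3 with 1 array left out, and was 4 with the replicate block (correlation 0.218). With the replicate block the interaction gave 4 calls in place of 0. Probe sets apart on the higher side numbered 2066 with no filter, where more were tested, 2170 against replication 1 alone, 2453 against replication 3 alone and 1456 to 1782 with 1 array left out. Those on the lower side numbered 2401 and 2597 against replications 1 and 3 alone. With an array of replication 2 left out, this count could not be formed.

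Directions turned at genes that were not called. Against replication 1 alone the log2 difference was -0.0054 for Krt7 and -0.021 for Per1, and against replication 3 alone it was 0.16 for Edn1, 0.061 for Sgk1 and -0.064 for Macroh2a1. Per1 had -0.21 on the vehicle arrays and ran from -0.21 to 0.28 with 1 array left out. On the aldosterone arrays Slc4a4 had 0.064 and Vegfa 0.083, and with 1 array left out they ran from -1.004 to 0.064 and from -1.95 to 0.083. The causes were not tested. With 2 arrays against 4 from 1 run against 2, neither dim probe sets nor small differences can be settled.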
